A study of Mus musculus with 8 samples.

Results

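Cathepsins, the proteases of the lysosome, were compared between adipose tissue macrophages (ATMs) from obese and lean mice. The 10 genes were taken by their exact symbols in the array's probe annotation: Ctsb, Ctsc, Ctsd, Ctse, Ctsf, Ctsh, Ctsk, Ctsl, Ctss and Ctsz. A gene was measured where a probe set carried its symbol and no other, and the brightest such probe set stood for it. By this rule 9 of the 10 were measured, among 18820 genes in all. The probe sets of Ctsb, a cysteine cathepsin, also carry the symbol of its neighbour Fdft1, so Ctsb is given no value here.

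All mice were male wildtype C57Bl/6 animals on a high-fat diet (HFD) or a matched low-fat diet (LFD), and ATMs were taken from the epididymal fat with magnetic beads against the macrophage surface protein that Adgre1 encodes. The HFD, made with lard, drew 45% (experiments 1 and 3) or 60% (experiments 2 and 4) of its energy from fat, and the LFD 10%. By the sample labels the diets lasted 16, 15, 16 and 10 weeks in experiments 1, 2, 3 and 4. The paper gives a single duration for its wildtype mice on these diets, which differs from some of these labels. Each of the 4 experiments gave 1 array of ATMs from HFD-fed mice and 1 of ATMs from LFD-fed mice, and each array held RNA pooled from several mice.

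Cathepsins are made as inactive precursors, tagged with mannose 6-phosphate and sorted to endosomes and lysosomes, where the acid pH and other proteases activate them. Most are cysteine proteases, whereas cathepsins D and E are aspartic proteases, and cystatins and serpins restrain those that escape. In macrophages they digest what the cell has taken up, trim proteins for antigen presentation and, when secreted, cut collagen and elastin. In obese fat, ATMs surround dying adipocytes and take up their lipid and debris.

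ATMs from obese mice had higher levels of Ctsd, Ctsk, Ctsl, Ctss and Ctsz in all 4 experiments. Ctse was lower in all 4, at dim signal, and Ctsc, Ctsf and Ctsh had mixed signs. Of all genes 11.0% were higher in all 4 experiments and 7.43% lower. The median log2 difference between HFD and LFD was 0.75 over the 9 cathepsins and 0.0049 over all genes. No gene on the array passed an adjusted p under 0.05 in limma (0% of genes, smallest adjusted p = 0.982). With experiment as a block, which compares the arrays within each experiment, again 0% passed (smallest adjusted p = 0.0508). The differences below are therefore given with their size, error and sign, and with counts at an unadjusted p under 0.05 beside the share of all genes. On that count 3 of 9 cathepsins were higher (Ctsk, Ctsd and Ctsl), as were 3.30% of all genes, and 0 were lower, against 1.51%. With the block 4 of 9 were higher (those and Ctsz), against 7.95% of all genes, and 0 lower, against 4.16%. Centring of the arrays on their medians changed the counts over all genes from 621 higher and 284 lower to 312 and 402, and gave 3 cathepsins (Ctsk, Ctsd and Ctsl) again. The panels of cathepsin levels by diet show the values behind these counts.

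**Figure D1:**
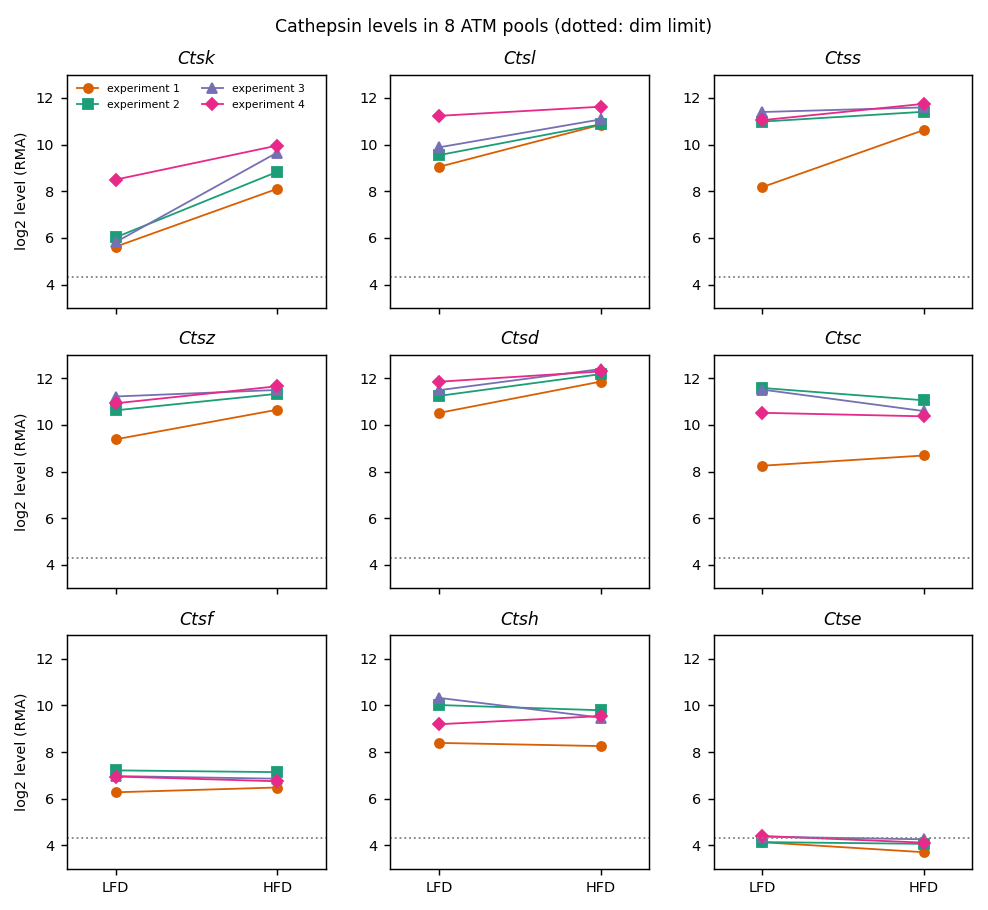
Log2 levels (RMA) of 9 cathepsins in ATMs of LFD-fed and HFD-fed mice, 1 panel per gene, with a line joining the arrays of each experiment. The dotted line is the dim limit, a log2 of 4.32. Lines for Ctsk, Ctsl, Ctss, Ctsz and Ctsd run upwards in all 4 experiments. Both arrays of experiment 1 lie low for Ctsc, and its LFD array lies low for Ctss.

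Promoters are shown for Ctsd, Ctsl, Ctsk and Ctsz, the 4 cathepsins counted as higher with the block, as the 250 bases before each start site from RefSeq (GRCm38.p6), 5′ to 3′ along the gene. Capitals mark matches to a searched motif, and lower case all other bases. The Ctsd promoter lies at chr7:142387828-142388077 (minus strand), that of Ctsl at chr13:64370521-64370770 (minus strand), that of Ctsk at chr3:95498960-95499209 (plus strand) and that of Ctsz at chr2:174439040-174439289 (minus strand).
Ctsd: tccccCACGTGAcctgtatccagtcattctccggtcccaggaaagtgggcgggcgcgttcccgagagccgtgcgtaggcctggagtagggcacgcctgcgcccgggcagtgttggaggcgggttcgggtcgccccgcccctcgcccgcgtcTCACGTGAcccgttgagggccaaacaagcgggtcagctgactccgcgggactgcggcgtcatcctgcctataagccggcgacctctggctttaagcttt
Ctsl: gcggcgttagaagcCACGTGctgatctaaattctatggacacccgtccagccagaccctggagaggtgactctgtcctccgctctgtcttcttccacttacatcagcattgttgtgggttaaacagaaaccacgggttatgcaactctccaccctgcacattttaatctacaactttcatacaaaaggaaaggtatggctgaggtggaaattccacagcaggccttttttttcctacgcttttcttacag
Ctsk: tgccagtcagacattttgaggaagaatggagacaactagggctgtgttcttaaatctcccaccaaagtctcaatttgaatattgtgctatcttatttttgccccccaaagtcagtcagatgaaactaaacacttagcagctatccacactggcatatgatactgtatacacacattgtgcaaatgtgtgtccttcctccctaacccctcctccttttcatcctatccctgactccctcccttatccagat
Ctsz: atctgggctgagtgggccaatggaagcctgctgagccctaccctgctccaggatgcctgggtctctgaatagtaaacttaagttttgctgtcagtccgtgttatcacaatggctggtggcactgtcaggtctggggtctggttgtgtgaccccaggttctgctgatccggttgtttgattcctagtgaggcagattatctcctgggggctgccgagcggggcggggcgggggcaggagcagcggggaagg

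The motifs, searched on both strands of windows from 250 bases before to 50 after the start, were TCACGTG, the core of the element shared by many lysosomal genes, the E-box CACGTG that lies within it, GAGGAAGT for the macrophage factor PU.1, and TGANTCA for AP-1. Of 32851 RefSeq windows 3.77% held TCACGTG, 7.15% CACGTG, 3.20% GAGGAAGT and 7.81% TGANTCA. Windows were given for 7 of the 10 cathepsins. That of Ctsd held TCACGTG from position -99 on the strand of the gene and from -245 and -98 on the reverse strand. Here -1 is the base just before the start. CACGTG alone was found from -236 in Ctsl and from -79 in Ctsf. GAGGAAGT was found on the reverse strand from -151 in Ctsc and from -2 in Ctss. The windows of Ctsk and Ctsz held none of the 4 motifs. Ctsk and Ctss are neighbouring genes on chromosome 3. A match describes letters in these windows and is not a measured site.

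Ctsk encodes cathepsin K, a collagen-cutting protease best known from osteoclasts. In LFD pools its log2 level was 5.62, 6.02, 5.81 and 8.50 in experiments 1, 2, 3 and 4. In HFD pools it was 8.10, 8.83, 9.66 and 9.96. The LFD pool of experiment 4 lay well above the other LFD pools and above the HFD pool of experiment 1, so the groups overlapped through that pool. The log2 difference was 2.48, 2.81, 3.84 and 1.46 in the 4 experiments, with a mean of 2.65 (SE 0.70), or 6.28-fold (limma, adjusted p = 0.982). With the block the SE was 0.37, with a 95% confidence interval from 1.73 to 3.57 (limma, adjusted p = 0.0829). Among the mean differences of all 18820 genes that of Ctsk ranked 10 from the top. Without experiment 4 the mean was 3.05, or 8.26-fold, and without experiment 1 it was 2.71.

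Ctsl encodes cathepsin L, a cysteine endopeptidase found in the lysosomes of most cells. Its level was 9.04, 9.55, 9.88 and 11.23 in LFD pools and 10.85, 10.87, 11.08 and 11.62 in HFD pools of experiments 1 to 4. As for Ctsk, the LFD pool of experiment 4 was the highest of its group, and here it lay above 3 of the 4 HFD pools. The differences were 1.81, 1.32, 1.20 and 0.39, with a mean of 1.18 (SE 0.45), or 2.27-fold (limma, adjusted p = 0.982). With the block the SE was 0.23 and the 95% confidence interval ran from 0.61 to 1.75 (limma, adjusted p = 0.158). The interval of Ctsk began at 1.73, just under the upper end of that of Ctsl.

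Ctss encodes cathepsin S, which trims the invariant chain of class II molecules and stays active at neutral pH. Its level was 8.17, 10.98, 11.39 and 11.04 in LFD pools and 10.62, 11.40, 11.59 and 11.75 in HFD pools. The LFD pool of experiment 1 stood far below all other pools. The difference in experiment 1 was 2.45, against 0.42, 0.20 and 0.70 in experiments 2, 3 and 4. The mean was 0.94 (SE 0.70), or 1.92-fold (limma, adjusted p = 0.990). It was 0.44 without experiment 1 and 0.20 without the LFD pool of that experiment alone. With the block the 95% confidence interval ran from -0.01 to 1.90 (limma, adjusted p = 0.418).

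Among the aspartic proteases, Ctsd encodes cathepsin D, an abundant lysosomal endopeptidase that also processes other lysosomal proteins. Its level was 10.52, 11.25, 11.49 and 11.85 in LFD pools and 11.86, 12.18, 12.40 and 12.29 in HFD pools. Ctsd was the only cathepsin whose groups did not overlap, and the gap between them was 0.004. Of all genes 1.19% had HFD pools that lay wholly above LFD pools and 0.680% wholly below. The differences of Ctsd were 1.34, 0.94, 0.91 and 0.44, with a mean of 0.91 (SE 0.28), or 1.87-fold (limma, adjusted p = 0.982). With the block the SE was 0.15 and the 95% confidence interval ran from 0.52 to 1.29 (limma, adjusted p = 0.121). Centring each array on its median closed the gap and left 0 cathepsins whose groups did not overlap. Without experiment 1 the HFD pools of 4 cathepsins lay above all LFD pools (Ctsd, Ctsk, Ctss and Ctsz; 8.30% of all genes), and without experiment 4 those of 3 did (Ctsd, Ctsk and Ctsl; 2.98%).

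Ctse encodes cathepsin E, an aspartic protease of endosomes. Its level was 4.14, 4.14, 4.38 and 4.41 in LFD pools and 3.71, 4.07, 4.26 and 4.12 in HFD pools. On 6 of 8 arrays it lay under the dim limit of 4.32, which is the median of all values. The differences of -0.43, -0.07, -0.11 and -0.29 had a mean of -0.23 (SE 0.13, limma, adjusted p = 0.987), and signal near the background limits what they can show.

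Ctsz, Ctsc and Ctsh encode proteases that work from the ends of proteins. Cathepsin Z is a carboxypeptidase, and Ctsz had a level of 9.38, 10.63, 11.22 and 10.93 in LFD pools and 10.65, 11.33, 11.50 and 11.66 in HFD pools. The groups overlapped only through the HFD pool of experiment 1. The differences were 1.27, 0.71, 0.28 and 0.73, with a mean of 0.75 (SE 0.41), or 1.68-fold (limma, adjusted p = 0.982). With the block the SE was 0.17 and the 95% confidence interval ran from 0.34 to 1.16 (limma, adjusted p = 0.192). Without experiment 1 the mean was 0.57.

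Ctsc encodes cathepsin C, a dipeptidyl peptidase that activates the serine proteases of granules. Its level was 8.25, 11.59, 11.52 and 10.52 in LFD pools and 8.69, 11.06, 10.60 and 10.37 in HFD pools. Both pools of experiment 1 were low, and the HFD pool was the higher only there. The differences were 0.44, -0.53, -0.92 and -0.15, with a mean of -0.29 (SE 0.83, limma, adjusted p = 0.999). With the block the 95% confidence interval ran from -0.85 to 0.27 (limma, adjusted p = 0.695). Without experiment 1 the mean was -0.53 (block SE 0.18, limma, adjusted p = 0.432).

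Ctsh, which encodes the aminopeptidase cathepsin H, had a level of 8.39, 10.02, 10.32 and 9.19 in LFD pools and 8.26, 9.79, 9.48 and 9.54 in HFD pools. It was lower in experiments 1, 2 and 3 and higher in experiment 4, with a mean difference of -0.21 (SE 0.49, limma, adjusted p = 0.999). Ctsf, which encodes the less studied endopeptidase cathepsin F, had a level between 6.28 and 7.22 in LFD pools and between 6.48 and 7.14 in HFD pools. Its mean difference was -0.05 (SE 0.22), the smallest of the 9, and with the block the 95% confidence interval ran from -0.29 to 0.19 (limma, adjusted p = 0.906). For Ctsh that interval ran from -0.70 to 0.27, so a difference of the size seen for Ctsz lay outside it. The plot of differences by experiment sets the 9 cathepsins beside each other.

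**Figure D2:**
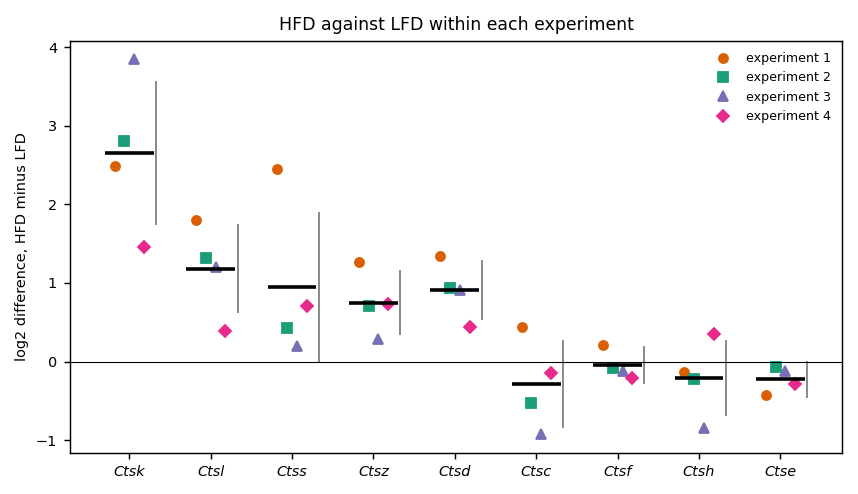
Log2 difference, HFD minus LFD, of 9 cathepsins in each of 4 experiments (points), with the mean (thick bar) and its 95% confidence interval from limma with experiment as a block (thin line). Ctsk has the largest mean, 2.65, and the intervals of Ctsk, Ctsl, Ctsz and Ctsd lie above 0.

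The HFD of 60% fat was used in experiments 2 and 4 and that of 45% in the other two, and the difference at 60% minus that at 45% was tested as an interaction in limma. It was -1.03 (SE 0.66) for Ctsk, -0.76 for Ctss, -0.64 for Ctsl, -0.44 for Ctsd and 0.55 for Ctsh, and between -0.19 and 0.09 for the other 4. No cathepsin and no other gene passed an adjusted p under 0.05 (0% of genes, and adjusted p = 0.951 for Ctsk). Ctsk differed by 3.16 with 45% fat and by 2.14 with 60%. Fat content, weeks of diet and experiment cannot be told apart within 4 experiments.

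Several cathepsins had like patterns across the 8 arrays. Ctsd, Ctsk and Ctsl varied together, with Pearson's r of 0.924 for Ctsd and Ctsl, 0.946 for Ctsk and Ctsl and 0.910 for Ctsd and Ctsk. Ctss and Ctsz formed a close pair (r = 0.967), as did Ctsc with Ctsh (0.965) and with Ctsf (0.953). Ctsk and Ctsc had an r of 0.060. When the mean of each experiment was removed, Ctsd and Ctsl had an r of 0.997, Ctss and Ctsz 0.930, Ctsc and Ctsh 0.712, and Ctsk and Ctsc -0.645. That step keeps the effect of diet, and r then rests only on the differences between HFD and LFD in the 4 experiments. Genes that were higher in all 4 experiments must therefore have a positive r with each other. These values describe 36 pairs over the same 8 arrays, which share their diets and experiments, and both arrays of experiment 1 lay low for several of the genes.

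**Figure D3:**
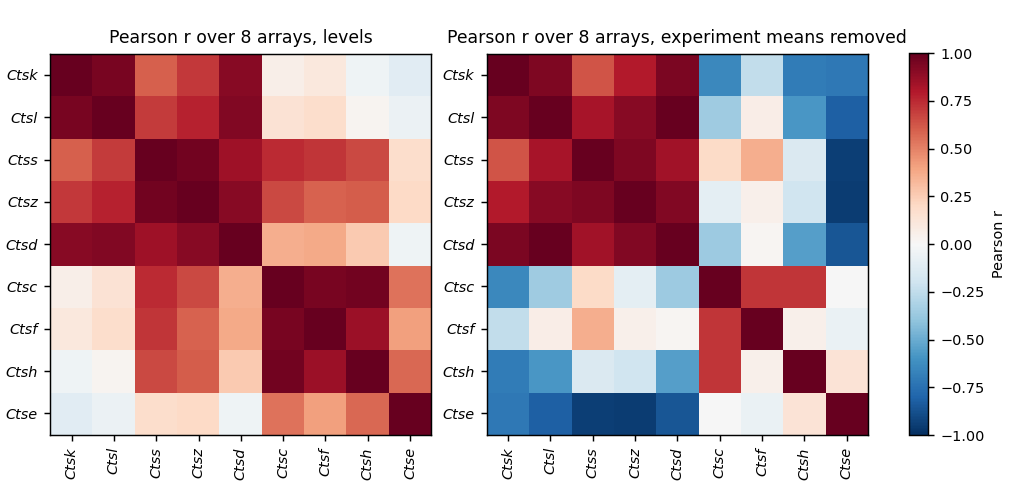
Pearson's r between the log2 levels of 9 cathepsins over 8 arrays (left) and after the mean of each experiment was removed (right), from -1 (blue) to 1 (red). Ctsk, Ctsl, Ctss, Ctsz and Ctsd form a red block in both panels, and Ctsc, Ctsf and Ctsh have lower or negative r with most of them on the right. On the right r rests only on the differences within the 4 experiments, so the red block there follows from their shared sign.

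Of 6848 genes with a mean level of at least 6, those with the patterns most like each cathepsin were found by Pearson's r over the 8 arrays. For Ctsk they were Anxa1, which encodes an annexin (r = 0.995), and Slc6a8, the creatine transporter (0.993). For Ctsl they were Gpnmb, a transmembrane glycoprotein of phagocytes (0.984), and Tm4sf19 (0.978). For Ctsd they were Atp6v0d2, a subunit of the proton pump that acidifies lysosomes (0.991), and Adam8, a membrane metalloprotease (0.985). The pattern of Ctss was most like those of Cd68, a lysosomal membrane protein of macrophages, and Nckap1l (0.996 each), and that of Ctsz most like those of Apobr, a lipoprotein receptor, and Psd4 (0.998 each). For Ctsc they were Mrc1, the mannose receptor (0.997), and Arhgdib (0.996). For Ctsh they were Tk2 and Aftph (0.988 and 0.987), for Ctsf Rps25 and Pf4 (0.962 and 0.954), and for Ctse, at dim signal, Bmyc and Ccdc12 (0.957 and 0.949). With 8 arrays and 6848 genes searched, a high r is easily found, and these names are a description only.

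Markers of cell types were read on the same arrays. The mean of 10 macrophage markers was 7.15, 10.02, 10.32 and 9.75 in LFD pools and 8.48, 10.03, 10.02 and 9.77 in HFD pools. Adgre1, the gene of the protein used for selection, was 6.54 and 8.58 in the LFD and HFD pools of experiment 1 and between 9.95 and 10.95 in the others. Experiment 1 thus had low macrophage markers, above all in its LFD pool, and its HFD pool exceeded its LFD pool by 1.34 in the marker mean. In experiments 2, 3 and 4 that difference was 0.01, -0.30 and 0.01. The 10 markers did not move together. Their differences ran from 0.24 (Aif1) to 2.45 (Cd68) in experiment 1 and from -1.33 (Aif1) to 0.38 (Cd68) in experiment 3. In bulk samples of this kind, fewer cells of a type and less RNA per cell cannot be told apart.

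Measured against the macrophage markers, by subtraction of the marker mean within each experiment, Ctsk was higher in HFD pools by 1.15, 2.80, 4.14 and 1.45. Ctss was higher by 1.11, 0.41, 0.50 and 0.69, and Ctsl by 0.47, 1.31, 1.50 and 0.38. Ctsd was higher by 0.92, 1.21 and 0.43 in experiments 2, 3 and 4 and by 0.006 in experiment 1. These 4 thus had higher levels in HFD pools in all 4 experiments on this scale as well, Ctsd barely so in experiment 1. These signs hold against the marker mean and not against each marker. In experiment 1 the differences of Ctsd and Ctsl (1.34 and 1.81) were under that of Adgre1 (2.04), whereas that of Ctsk (2.48) was not. In experiment 3 that of Ctss (0.20) was under that of Cd68 (0.38). Against the marker mean, Ctsz was -0.07 in experiment 1 and between 0.58 and 0.72 in the others. Ctsc was lower in all 4 experiments on this scale (-0.90, -0.54, -0.62 and -0.16), and Ctse was 0.19 in experiment 3 and below 0 in the others. The share of all genes with the same sign in all 4 experiments was not counted on this scale, so these counts have no background. On this scale the median difference of all genes was -0.26, against 0.0049 for the values as deposited, and Ctsk was the only cathepsin at an unadjusted p under 0.05. Limma gave every cathepsin the same SE, 0.88, on this scale. That p thus followed the size of the difference and took no account of each gene's own spread. Over the 8 arrays the marker mean had an r of 0.940 with Ctsc, 0.924 with Ctss, 0.641 with Ctsd, 0.445 with Ctsl and 0.343 with Ctsk.

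**Figure D4:**
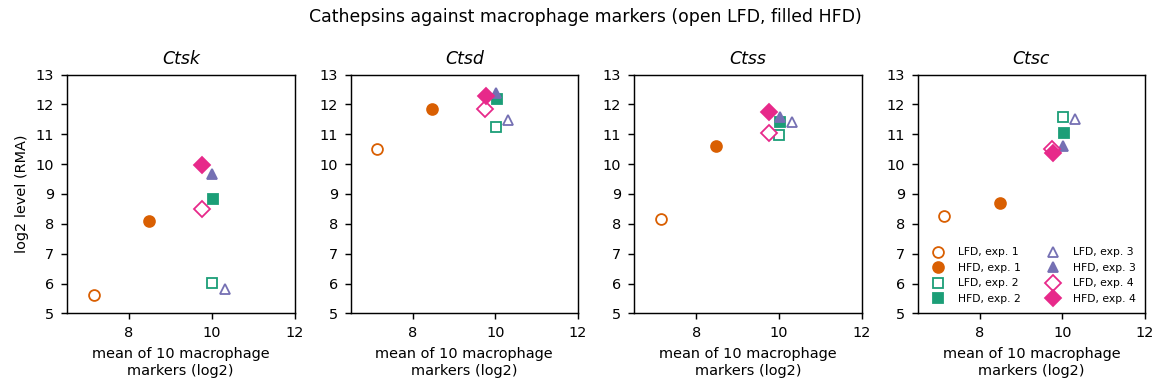
Log2 levels of Ctsk, Ctsd, Ctss and Ctsc against the mean of 10 macrophage markers on the 8 arrays (LFD open, HFD filled, 1 colour and shape per experiment). Both arrays of experiment 1 lie to the left. Ctsc lies low on both of them and Ctss on the LFD array. For Ctsk the filled points lie above the open point of the same experiment at like marker means in experiments 2, 3 and 4.

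Markers of other cells were also present. In experiment 1 the macrophage mean (7.15 in the LFD pool and 8.48 in the HFD pool) lay below the mural mean (9.29 and 9.32). It also lay below the endothelial mean in both pools. The mean of 16 endothelial genes was 10.55, 8.56, 5.79 and 9.09 in LFD pools and 10.23, 7.70, 7.81 and 7.41 in HFD pools, with differences of -0.32, -0.87, 2.02 and -1.68. The mean of 8 fibroblast genes differed by 0.04, 0.80, 1.32 and -0.42 and ranged from 5.95 to 8.14 in LFD pools and from 7.28 to 8.94 in HFD pools. Both lists, and the 6 mural genes (0.03, -0.11, 1.68 and -0.95), had their highest difference in experiment 3, as Ctsk did. Ctsk is also made by fibroblasts. Of the 8 fibroblast genes 2 were higher in HFD pools in all 4 experiments (11.0% of all genes), the collagen genes Col1a1 and Col3a1, by 1.00 (block SE 0.28) and 1.03 (block SE 0.29). These 2 also had an unadjusted p under 0.05 with the block (7.95% of all genes). The other 6 had mixed signs, with mean differences from -0.23 for Pi16 and -0.13 for Dcn to 0.84 for Col1a2. Over the 8 arrays Ctsk had an r of 0.171 with the fibroblast mean, -0.141 with the endothelial mean and -0.116 with the mural mean. Other cathepsins had stronger negative values. With the endothelial mean r was -0.893 for Ctsh, -0.811 for Ctsc, -0.755 for Ctsz and -0.728 for Ctss, and -0.224 for Ctsl. With the mural mean it reached -0.896 (Ctsh), and with the fibroblast mean -0.527 (Ctse). In experiment 4 Ctsk had its smallest difference, 1.46, and the fibroblast, endothelial and mural means had their lowest, all below 0. The differences of Ctsk and of the fibroblast mean had the same order, from experiment 3 through 2 and 1 to 4. The part of these cells in the cathepsin levels was not tested.

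Of the other leukocytes, list means lay near or under the dim limit, though some single genes lay well above it. These means ranged from 3.76 to 4.38 for 4 B cell genes, from 3.15 to 3.68 for 7 T and NK cell genes, from 4.13 to 4.84 for 6 dendritic cell genes and from 3.86 to 4.62 for 8 neutrophil and mast cell genes. Among the dendritic cell genes Cd209a was 4.78, 8.91, 9.08 and 6.63 in LFD pools and 5.32, 6.88, 6.53 and 6.87 in HFD pools. Its differences were 0.53, -2.03, -2.55 and 0.24. The B cell mean was lower in HFD pools in all 4 experiments, by -0.24, -0.25, -0.51 and -0.46, with 1 of its 4 genes, Cd79b (-0.88), lower in all 4 experiments. Differences of the neutrophil and mast cell mean were -0.05, 0.66, 0.23 and -0.26. In experiment 2 the mast cell gene Cpa3 was 3.64 in the LFD pool and 7.07 in the HFD pool, whereas Kit was 5.29 and 5.26 and the neutrophil gene Csf3r 7.05 and 6.53.

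The mean of 5 adipocyte genes lay above the dim limit, between 5.07 and 5.87 in LFD pools and between 4.36 and 5.72 in HFD pools. It differed by 0.25, -0.71 and -0.28 in experiments 1, 2 and 3 and was 5.87 and 4.87 in the LFD and HFD pools of experiment 4, with Retn lower in all 4 experiments (-1.72) and Lep higher in all 4 (0.45). The mean of 5 mesothelial genes ranged from 3.95 to 4.87. The part of these cells in the cathepsin levels was likewise not tested.

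The machinery that tags, sorts and activates cathepsins was described from a list of 13 genes, of which 12 were measured. In HFD pools 11 of the 12 had higher levels in all 4 experiments, against 11.0% of all genes. At an unadjusted p under 0.05, 4 of the 12 (Gnptab, Psap, Sort1 and Igf2r) were higher, against 3.30% of all genes, or 6 with the block, against 7.95%, with 0 lower in either fit. The median difference was 0.41. The mean of the 12 genes differed by 0.44, 0.55, 0.44 and 0.39 in the 4 experiments, so that in experiment 1 it was less than the 1.34 of the macrophage markers. Gnptab, which encodes the enzyme that starts the mannose 6-phosphate tag, was 7.04, 7.20, 7.61 and 7.77 in LFD pools and 7.62, 8.04, 8.33 and 8.70 in HFD pools. Its HFD pool was the higher in each experiment by a similar step, with a mean of 0.77 (SE 0.26, with the block 0.09, and limma adjusted p = 0.0731 with the block). Psap, the precursor of the saposins, differed by 0.64 (SE 0.20), and Sort1, the sorting receptor sortilin, by 0.69 (SE 0.26). Igf2r, the large mannose 6-phosphate receptor, differed by 1.16 (SE 0.49), with 0.32, 1.32, 2.35 and 0.65 in the 4 experiments. Gga2, an adaptor that loads these receptors into vesicles, differed by 0.41 (SE 0.22). Of the genes at larger p, Lgmn, the protease that cuts several cathepsins into their mature chains, differed by 0.40 (SE 0.55), and Scarb2 by -0.03 (SE 0.14).

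**Figure D5:**
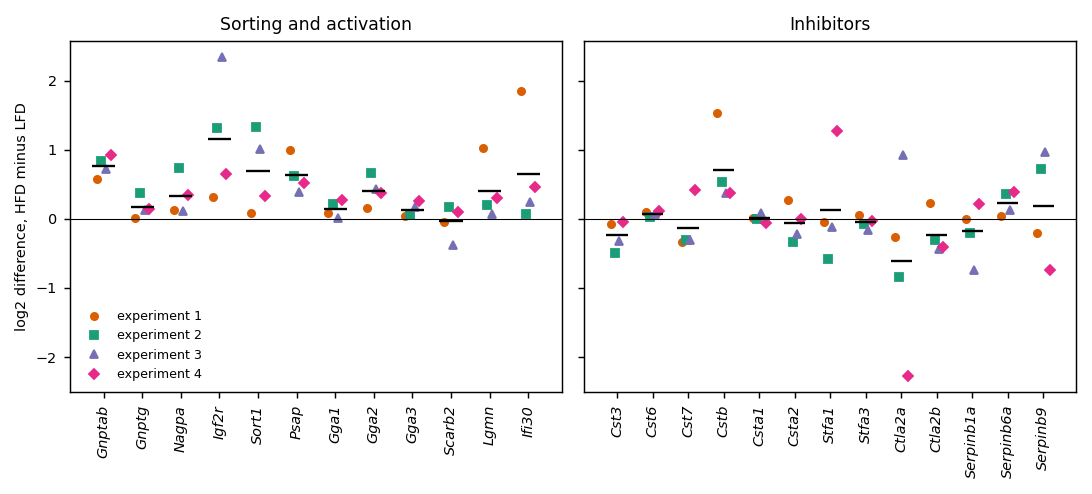
Log2 difference, HFD minus LFD, of 12 genes of cathepsin sorting and activation (left) and of 13 inhibitor genes (right) in each of 4 experiments (points), with the mean (bar). On the left nearly all points lie above 0, whereas the inhibitors scatter around 0 apart from Cstb, Ctla2a and a few single points.

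Inhibitors of cathepsins had no common direction. Of 16 inhibitor genes 13 were measured, 6 of them under the dim limit on more than 4 arrays, and their median difference was -0.05. In all 4 experiments 3 were higher (Cstb, Serpinb6a and, at dim signal, Cst6, against 11.0% of all genes) and 1 lower (Cst3, against 7.43%). With an unadjusted p under 0.05 there were 0, and with the block 1, which was higher, against 7.95% of all genes. That gene was Cstb, which encodes stefin B, an inhibitor inside the cell, with differences of 1.54, 0.53, 0.37 and 0.37 and a mean of 0.70 (SE 0.57, and limma adjusted p = 0.311 with the block). Cst3, the secreted inhibitor cystatin C, was lower in all 4 experiments, with a mean of -0.23 (SE 0.16). Serpinb6a differed by 0.23 (SE 0.21). Relative to the macrophage markers Cstb differed by 0.44, Cst3 by -0.50 and Serpinb6a by -0.03. Ctla2b, which resembles the propeptide of cysteine cathepsins, differed by -0.23 (SE 0.31), and Cst7, which acts on cathepsin C, by -0.13 (SE 0.17). Both Cst7 and Cst6 lay under the dim limit on all 8 arrays, and Cst6 differed by 0.08.

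Of 8 other lysosomal peptidases, all measured and with Lgmn and Ctsa shared with other lists, 4 had higher levels in HFD pools in all 4 experiments, against 11.0% of all genes, and the median difference was 0.43. Without the block 0 had an unadjusted p under 0.05, and with it 4 were higher, against 7.95% of all genes: Tpp1 (0.47), Dpp7 (0.50), Ctsa (0.46) and Scpep1 (0.54). Tpp1 and Dpp7 encode peptidases that cut from the amino end, and Ctsa and Scpep1 serine carboxypeptidases. Napsa (-0.01) and Prcp (-0.07) did not pass. Of the 4 cathepsins outside the group of 10, Ctsa was as given, Ctso differed by -0.08, and Ctsg and Ctsw were dim. The 7 measured cathepsins of the rodent placenta were all dim, with differences from -0.14 to 0.11.

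Genes of class II antigen presentation, the setting in which Ctss is best known, had negative mean differences. Of 7 genes 6 were measured, 0 had the same sign in all 4 experiments and 0 had an unadjusted p under 0.05 in limma with or without the block, with a median of -0.12. Cd74, the invariant chain cut by cathepsin S, was 10.81, 12.31, 12.43 and 11.87 in LFD pools and 11.18, 12.06, 11.99 and 11.93 in HFD pools. Its mean difference was -0.07 (SE 0.38), and those of H2-Aa and of Ciita, the master regulator of these genes, were -0.10 (SE 0.54) and -0.35 (SE 0.66). HFD pools thus had a higher level of Ctss in each experiment beside levels of Cd74 that were higher in experiments 1 and 4 and lower in experiments 2 and 3.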

How the data were processed

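The authors hybridised RNA of 8 ATM pools to Affymetrix arrays and deposited log2 values from RMA, a tool named without a version in the submitters' processing notes. Of 35556 features 21218 carried 1 gene symbol, 1881 several and 12457 none. For the 1386 genes with several probe sets the brightest was used. Array medians ranged from 4.25 to 4.39, and the number of arrays limits the precision.

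HFD and LFD arrays were compared over all genes in limma 3.58.1 (R 4.3.3; lmFit and eBayes) with Benjamini-Hochberg adjustment and no block, since the paper's statistics section names Student's t test for pairs of groups and mentions no block. Its array analysis is left to supplementary methods, not used here. SEs are from that fit unless given as block SEs. The experiment numbers of the labels pair the arrays: the deviations of both arrays of an experiment from the means of their diets correlated over genes, with r of 0.889, 0.357, 0.652 and 0.186 in experiments 1, 2, 3 and 4. The fit with the experiment as a block is therefore also reported. A p-value sets a difference against the spread between pools of separate experiments, or with the block against the spread of differences between experiments. The scripts were tested on simulated data.

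The members and lists were chosen with earlier results of these data known. Named genes are the 10 cathepsins, up to 4 genes of each list with the smallest p with the block and up to 2 well-known ones without an unadjusted p under 0.05, Adgre1, and the 2 genes most like each cathepsin. Sort1, Cst6 and single markers of other cell types fall outside this rule and were named after their values were seen. Alternatives covered the block, leaving out arrays or experiments, scaling, dim probe sets (under 4.32 on more than 4 arrays), the mean of probe sets, the prior, either fat content alone and the methods' t-test. The public arrays of other macrophages that the study used were not analysed here.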

Additional observations from a re-analysis of the deposited data

Results flagged for a closer look

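In the LFD pools, 2 cathepsins had 1 array far from the other 3. The level of Ctsk in the LFD pool of experiment 4 was 8.50, and the gap to the nearest LFD pool was 0.861 of the range of the group. By the labels the diet lasted 10 weeks in that experiment and 15 or 16 weeks in the others. The paper gives a single duration for its wildtype mice on these diets. Without that array the difference of Ctsk between HFD and LFD was 3.32, against 2.65 with it. The level of Ctss in the LFD pool of experiment 1 was 8.17, with a gap of 0.872 of the range, and the macrophage markers were lowest in that pool as well. Such a gap was looked for in 27 groups of 4 values, and chance gives one in about 1 in 20 groups.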

How the results depend on the processing

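The 28 alternatives kept the sign of the differences of Ctsd, Ctse, Ctsk, Ctsl, Ctss and Ctsz where these genes were tested. Over them Ctsk ranged from 2.14 to 3.32, Ctsl from 0.86 to 1.61, Ctsd from 0.64 to 1.12, Ctss from 0.20 to 1.32 and Ctsz from 0.36 to 0.97. Ctss was 0.20 without LFD replicate 1, against 0.94. Signs of small differences turned. With an array or experiment left out, Ctsc ranged from -1.03 to 0.21 (above 0 without LFD replicate 2, LFD replicate 3 or HFD replicate 1). Ctsf ranged from -0.24 to 0.073 (above 0 without LFD replicate 2, HFD replicate 1 or experiment 4, there 0.005) and was 0.0455 with 45% fat only. Ctsh ranged from -0.58 to 0.12 (above 0 without LFD replicate 3 or HFD replicate 1) and was 0.0625 with 60% fat only. The replicate block alone changed no call at the adjusted threshold.

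With arrays centred on their median and the replicate block, a setting chosen after seeing the data, limma called 1 cathepsin (Ctsk, 2.60, adjusted p = 0.0332) among 65 genes higher and 5 lower. By the unadjusted p, 5 cathepsins were then higher and 1 lower (Ctse), against 5.20% and 5.39% of all genes, and 1 was higher when arrays were centred on macrophage markers (0.112%). In that last setting every cathepsin had the same SE, so its p followed only the size of the difference. Leaving out an array or experiment gave 1 to 5 higher (1, Ctsk, without experiment 2 and no block, where 1.23% of all genes were; 5 with the block without experiment 1 or 3, against 7.15% and 8.32%) and 0 to 1 lower (Ctsc, with the block without experiment 1, against 3.27%). Of cathepsins whose groups did not overlap, 0 were higher with median centring (0.484% of all genes), and 1 to 4 were higher (2.36% to 8.30%) and 0 to 1 lower (Ctse, without experiment 3, against 2.09%) with an experiment left out.

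Of 48 partner genes (inhibitors, sorting, peptidases, class II, other and placental cathepsins), 4 were higher and 0 lower by the same count (3.30% and 1.51% of all genes). With the replicate block 11 were higher (7.95%), with the methods' t-test 2 (2.78%), with median centring and the block 9 (5.20%), and without dim probe sets and with the block 10 of 33 (11.4%). With 45% fat only 0 were higher (0.473%) and with centring on macrophage markers 0 (0.112%). With 60% fat only 5 were higher (6.49%) and 2 lower (4.20%). With an array or experiment left out, 0 to 6 were higher. There were 0 without experiment 2, where 1.23% of all genes were, and 6 without HFD replicate 1 (5.68%) or without experiment 1 (6.26%). With the block 9, 6, 10 and 8 were higher without experiments 1, 2, 3 and 4 (4.83% to 8.32%). With or without the block 0 to 1 were lower, and where 1 was, 2.34% to 5.81% of all genes were. The causes were not tested. Signal near background limits Ctse, and the number of arrays limits the rest.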
